A study of Mus musculus with 6 samples.

Results

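Kit and Ly6a encode c-Kit and Sca-1, the proteins that define LSKs, the bone marrow cells that lack lineage antigens and carry both, and they were examined here together with the Ly6 genes Ly6c1, Ly6c2, Ly6d, Ly6e and Ly6g. The 7 genes were taken by gene symbol from a deposited expression table of 55487 genes. LSKs were sequenced from 3 Tespa1+/+ (wild-type littermate) and 3 Tespa1-/- samples. Per the study's methods, the mice were males of 8 to 10 weeks on a C57BL/6 background and received 5.0 Gy of total body irradiation, and the cells were collected at day 13, so that both genotypes carry the irradiation and no unirradiated group was analysed here. No deletion restricted to a cell type is described, so the genotype was shared by the niche and by all blood cells. Whether a sample was 1 mouse or a pool was not stated, and p-values therefore measure the spread between these samples. The comparison asked how the transcripts of the sort markers and of their gene family differed between the genotypes.

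c-Kit is the receptor tyrosine kinase for stem cell factor, and signalling through it supports the survival and proliferation of hematopoietic stem and progenitor cells. The Ly6 proteins are small cell surface proteins of the Ly6/uPAR family, most of which are held in the membrane by a glycosylphosphatidylinositol (GPI) anchor. Sca-1 (Ly6a) marks stem cells and multipotent progenitors and is known to respond to interferon. Ly-6C is a marker of monocytes and other myeloid cells, and Ly-6G is a marker of neutrophils. Anti-Gr-1 antibodies bind Ly-6G and can also bind Ly-6C, and anti-Gr-1 was part of the lineage cocktail used to exclude mature cells. Ly6g therefore encodes an antigen of the negative gate, and the Ly-6C genes Ly6c1 and Ly6c2 encode antigens that this gate may reach. Kit and Ly6a encode the antigens of the positive gates.

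On the mouse build GRCm38, Kit lies on chr5:75574916-75656722 on the plus strand. The 6 Ly6 genes lie in a cluster on chromosome 15: Ly6d at chr15:74762056-74763620 (minus strand), Ly6e at chr15:74955051-74959905 (plus), Ly6a at chr15:74994877-74998031 (minus), Ly6c1 at chr15:75044018-75048830 (minus), Ly6c2 at chr15:75108158-75111970 (minus) and Ly6g at chr15:75155240-75159126 (plus). All are protein-coding, and no annotated gene overlaps any of the 7. The coding sequences of Ly6c1 and Ly6c2 were identical at 387 of 396 bases (97.7%). That of Ly6a was 83.2% identical to Ly6g and 82% to Ly6c1, and Ly6d and Ly6e were more distant, with 50.1% to 53.5% identity to the Ly6 genes compared. The first 180 coding bases of the near-identical pair are shown, chosen as the in-frame stretch of that length with the most differing bases. They were spliced from the annotated exons of the principal transcripts, positions count from the start codon, and the 6 bases that differ are in capitals.
Ly6c1: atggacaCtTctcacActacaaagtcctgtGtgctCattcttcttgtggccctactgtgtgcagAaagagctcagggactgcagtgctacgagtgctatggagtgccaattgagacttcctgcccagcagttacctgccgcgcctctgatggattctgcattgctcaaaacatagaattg
Ly6c2: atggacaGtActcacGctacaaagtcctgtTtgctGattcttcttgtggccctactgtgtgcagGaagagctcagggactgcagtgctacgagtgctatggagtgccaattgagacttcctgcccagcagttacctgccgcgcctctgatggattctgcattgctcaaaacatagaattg
After the last capital of this stretch the sequences are the same up to its end. Of all 100-base windows of the principal transcripts, 15.3% of those of Ly6c1 and 15.8% of those of Ly6c2 occurred unchanged in another gene, against 0% for each of the other 5 genes. Counts of Ly6c1 and Ly6c2 are therefore uncertain where reads fell in shared stretches, and their sum is given beside them.

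RefSeq promoter windows (GRCm38.p6, 250 bases before to 50 after the start) were found for 4 of the 7 genes, namely Kit, Ly6c1, Ly6c2 and Ly6g. Those of the 3 Ly6 genes are printed, since Ly6c2 was the member called higher, Ly6g was counted in Tespa1-/- libraries and in no Tespa1+/+ library, and Ly6c1 is the near-identical copy of Ly6c2. They lie at chr15:75048788-75049087 (Ly6c1, minus strand), chr15:75111922-75112221 (Ly6c2, minus) and chr15:75155011-75155310 (Ly6g, plus). Capitals mark the letters GAGGAAGT, a sequence of the type bound by the myeloid factor PU.1, and TATAAA, searched on both strands.
Ly6c1: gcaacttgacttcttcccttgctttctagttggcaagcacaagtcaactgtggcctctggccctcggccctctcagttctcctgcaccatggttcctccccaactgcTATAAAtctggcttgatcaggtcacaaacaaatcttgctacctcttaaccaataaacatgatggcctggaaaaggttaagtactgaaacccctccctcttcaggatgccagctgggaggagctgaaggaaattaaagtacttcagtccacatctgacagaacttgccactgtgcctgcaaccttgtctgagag
Ly6c2: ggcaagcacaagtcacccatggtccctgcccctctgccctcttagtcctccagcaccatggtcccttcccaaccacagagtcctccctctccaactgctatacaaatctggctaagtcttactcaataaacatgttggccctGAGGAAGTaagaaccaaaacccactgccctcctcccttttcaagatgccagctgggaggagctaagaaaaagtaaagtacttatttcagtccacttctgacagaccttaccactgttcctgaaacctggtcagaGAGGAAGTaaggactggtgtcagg
Ly6g: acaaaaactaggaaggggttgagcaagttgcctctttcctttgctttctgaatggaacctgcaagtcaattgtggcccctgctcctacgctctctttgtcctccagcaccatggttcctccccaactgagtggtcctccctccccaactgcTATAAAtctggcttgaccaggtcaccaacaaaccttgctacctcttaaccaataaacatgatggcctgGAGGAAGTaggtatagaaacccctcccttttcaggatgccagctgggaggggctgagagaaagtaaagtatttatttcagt
GAGGAAGT occurred in Ly6c2 with 2 matches and in Ly6g with 1, and had no match in the printed Ly6c1 window, although the windows of other RefSeq starts held 1 match for Ly6c1 and 2 for Ly6g. Of 32851 promoter windows, 3.2% held it. TATAAA occurred in the printed windows of Ly6c1 and Ly6g and not in that of Ly6c2, nor in the other Ly6c1 window, with 13.6% of all windows holding it. AGATAA, TTCNNNGAA, GAAANNGA and GGGCGG, where N is any base, were also searched and had no match in the printed windows. A match describes letters only. The windows of Ly6c1 and Ly6c2 were 73.8% identical over 282 aligned columns, lower than the identity of their coding sequences.

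The libraries held 12856630 to 30576981 counts. Levels are given as CPM, counts divided by TMM-adjusted library totals. Tespa1, the targeted gene, had 34.3 ± 1.62 CPM in Tespa1+/+ and 14.6 ± 0.634 CPM in Tespa1-/- libraries (SD, n = 3 each), a log2 fold change of -1.23 (SE 0.068) with an edgeR adjusted p = 7e-06. Its transcript was thus lower in all 3 null libraries and still detected. Genes were called at an edgeR quasi-likelihood adjusted p under 0.05 with a fold over 1.5. Of 15332 genes tested, 2148 (14.0%) were called higher and 2951 (19.2%) lower in Tespa1-/- LSKs, and 69.1% had groups that did not overlap. When libraries were scaled by total counts these numbers were 1493 and 3512, with the median of all genes shifted by -0.10 on the log2 scale. In bulk libraries, fewer cells of a type and less RNA per cell cannot be told apart.

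Among the 7 genes, 6 were tested. Kit fell and Ly6c2 rose, 1 call in each direction, and 3 of the 6 (Kit, Ly6c2 and Ly6e) had groups that did not overlap. The call shares are close to those of all genes. Both sort marker transcripts were detected in all 6 libraries. Ly6g had too few counts to be tested.

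**Figure D1:**
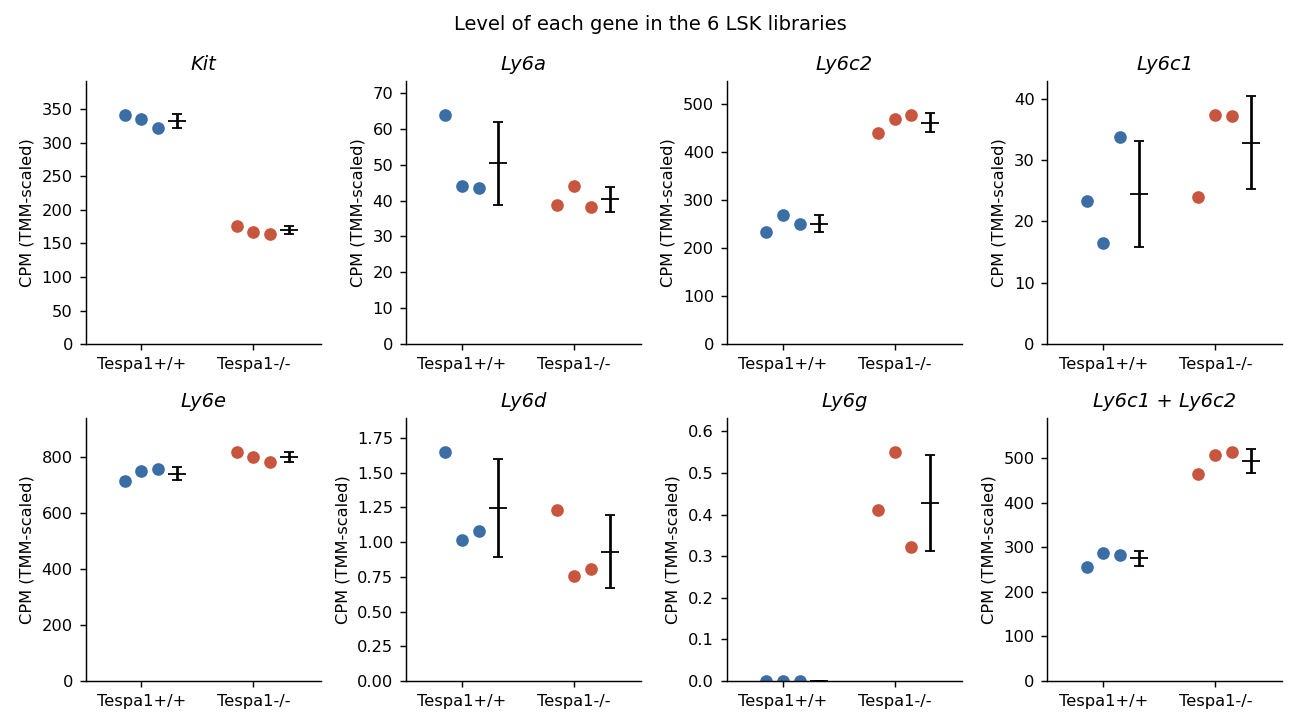
Each panel shows the CPM (TMM-scaled, linear axis from 0) of 1 gene in 3 Tespa1+/+ libraries (blue) and 3 Tespa1-/- libraries (red), with the mean and SD of each group in black, and the last panel shows Ly6c1 and Ly6c2 added together. Kit was at 321.4 to 340.5 CPM against 164.7 to 176.3, Ly6c2 at 233.2 to 269.4 against 439.1 to 476.1, and the groups overlapped for Ly6a, Ly6c1 and Ly6d.

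Compared per kilobase of union exon length, Ly6e was the most abundant of the 7 in Tespa1+/+ LSKs, with 195.4 ± 5.98 CPM per kilobase (SD, n = 3). It was followed by Ly6c2 with 91.5 ± 6.63, Ly6a with 41.8 ± 9.58, Kit with 37.3 ± 1.10, Ly6c1 with 14.6 ± 5.15 and Ly6d with 1.68 ± 0.471 CPM per kilobase, and Ly6g had no counts. Ly6a and Kit did not differ beyond their spread on this scale. In Tespa1-/- LSKs the levels were 210.9 ± 4.84 for Ly6e, 168.3 ± 7.11 for Ly6c2, 33.4 ± 2.79 for Ly6a, 19.6 ± 4.55 for Ly6c1, 19.0 ± 0.686 for Kit, 1.251 ± 0.351 for Ly6d and 0.454 ± 0.122 for Ly6g, so Kit and Ly6c1 were within their spread of each other. The length used matters for this order. Per kilobase of the principal transcript, Ly6c2 (561 ± 23.7) was above Ly6e (349.9 ± 8.04) in Tespa1-/- LSKs, and Kit (63.7 ± 1.87) and Ly6a (61.5 ± 14.1) were again within their spread in Tespa1+/+ LSKs.

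Kit, the receptor of the positive gate, fell by 0.97 on the log2 scale in Tespa1-/- LSKs. Its level was 340.5, 334.8 and 321.4 CPM in Tespa1+/+ libraries and 176.3, 167.1 and 164.7 CPM in Tespa1-/- libraries. The groups were far apart and each was narrow, with coefficients of variation of 2.94% and 3.61%. The mean was 332 ± 9.77 CPM against 169 ± 6.12 CPM (SD, n = 3 each), and the log2 fold change was -0.97 (SE 0.038, 95% interval -1.06 to -0.88, edgeR adjusted p = 2.1e-06). Kit has a union exon length of 8911 bases, and genes of similar length (from 20% shorter to 25% longer, over 8 CPM) were at a median log2 fold change of -0.33. After a correction for gene length the log2 fold change of Kit was -0.48 (edgeR adjusted p = 4.55e-05), and its fold was then under 1.5, as it was with a second length correction chosen after seeing the data (-0.58).

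Of 27 tested genes for the KIT ligand and its signalling pathway, 9 were called lower, 0 higher and 18 were not called. Of all genes tested, 19.2% were called lower. The median of the list was -0.41, where that of all genes tested was 0. Gab1, a docking protein downstream of receptor kinases, fell from 10.4 ± 0.570 to 4.23 ± 0.586 CPM (log2 fold change -1.30, edgeR adjusted p = 8.7e-05). Fyn, a Src-family kinase, fell from 42.6 ± 1.35 to 19.99 ± 2.15 CPM (-1.09, edgeR adjusted p = 3e-05). Kitl, the ligand, which is made by niche cells, had 0 counts in every library. Of 11 genes for known transcription regulators of Kit (factors and cofactors), 3 were called lower, 0 higher and 8 were not called, with a median of -0.50. Gata2 fell from 85.6 ± 19.0 to 45.9 ± 8.97 CPM (-0.91, edgeR adjusted p = 0.0046), and Gata1 fell from 13.9 ± 1.08 to 7.72 ± 0.902 CPM (-0.84, edgeR adjusted p = 0.000536). The third was Tal1 (-0.72, edgeR adjusted p = 0.00105), which forms complexes with GATA factors. Neither list was set against genes of its own length, and genes of similar length to Kit were at a median of -0.33.

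Ly6a, the Sca-1 gene, was not called. Its level was 63.7, 44.1 and 43.4 CPM in Tespa1+/+ libraries and 38.6, 44.2 and 38.1 CPM in Tespa1-/- libraries. Tespa1+/+ replicate 1 was above all others, and the remaining 5 libraries lay between 38.1 and 44.2 CPM, so that the groups overlapped. The mean was 50.4 ± 11.6 against 40.3 ± 3.36 CPM (SD, n = 3 for both groups; log2 fold change -0.32, SE 0.155, 95% interval -0.69 to 0.04, edgeR adjusted p = 0.109). Without Tespa1+/+ replicate 1 the value was -0.12. The spread of Ly6a over the Tespa1+/+ libraries was 22.9%, whereas counting error alone gives 3.22%. The chi-square per degree of freedom was 52.2, against a median of 1.91 and a 95th percentile of 34.1 over 10821 genes with a mean count of at least 100 in the same group. The cause of this spread was not tested. Ly6a is short (1205 bases of union exon), and genes of similar length were at a median of 0.53. After the length correction its value was -0.57 (edgeR adjusted p = 0.0147), and with total counts it was -0.42 (edgeR adjusted p = 0.0484), both still under a fold of 1.5. A second length correction, chosen after seeing the data, gave -0.80 (edgeR adjusted p = 0.00407), past that fold.

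The ratio of the sort marker transcripts within a library does not depend on scaling between libraries. The log2 ratio of Ly6a to Kit, from deposited FPKM, had values of -0.51, -1.02 and -0.98 for Tespa1+/+ and -0.28, -0.01 and -0.20 for Tespa1-/- libraries. It was higher in all 3 Tespa1-/- libraries, by 0.67 (means -0.84 ± 0.283 and -0.17 ± 0.139, SD, n = 3 each). The two-sided exact permutation test gave p = 0.1, the smallest that 3 against 3 samples allow. The ratio sets a short gene against a long one, and genes of similar length to Ly6a and to Kit had medians of 0.53 and -0.33. With the length corrections the order turned, with Ly6a at -0.57 and Kit at -0.48 in the first and -0.80 and -0.58 in the second.

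Further genes are used to gate subsets of LSKs and their progeny. Of 10 tested, 6 were called lower, 2 higher and 2 not called, at a median of -0.89. Il7r, the receptor chain of lymphoid progenitors, fell from 4.28 ± 0.0376 to 1.24 ± 0.295 CPM. Slamf1, which encodes the stem cell marker CD150, fell from 5.82 ± 0.316 to 2.11 ± 0.211 CPM. The 2 that rose were Fcgr3 (74.2 ± 2.74 to 122.7 ± 4.10 CPM) and Fcgr2b (54.1 ± 2.29 to 88.0 ± 2.82 CPM), which encode the Fc receptors CD16 and CD32 used to gate myeloid progenitors.

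Ly6c2 rose in Tespa1-/- LSKs. Its level was 233.2, 269.4 and 249.6 CPM in Tespa1+/+ libraries and 439.1, 468.3 and 476.1 CPM in Tespa1-/- libraries, so each Tespa1-/- library was above each Tespa1+/+ library. The mean was 251 ± 18.2 against 461 ± 19.5 CPM (SD, n = 3 for both groups; log2 fold change 0.88, SE 0.058, 95% interval 0.74 to 1.01, edgeR adjusted p = 1.5e-05). With the first and second length corrections it was 0.85 and 0.66. Ly6c1 was lower in level and far more variable. It was at 23.3, 16.5 and 33.7 CPM in Tespa1+/+ and 24.0, 37.3 and 37.2 CPM in Tespa1-/- libraries, with overlapping groups. Its log2 fold change of 0.43 (SE 0.277, 95% interval -0.22 to 1.09, edgeR adjusted p = 0.207) did not pass. It passed without Tespa1+/+ replicate 3 (0.74, edgeR adjusted p = 0.038), was 0.215 without Tespa1+/+ replicate 2, and was 0.27 and 0.04 with the first and second length corrections. The spread of Ly6c1 over Tespa1+/+ libraries was 35.3% against a counting error of 4.79%.

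The sum of Ly6c1 and Ly6c2 does not depend on how shared reads were divided between them. It came to 256.4, 286 and 283.2 CPM for Tespa1+/+ and 463.1, 505.6 and 513.3 CPM in Tespa1-/- libraries, and rose by 0.84 on the log2 scale (edgeR adjusted p = 1.58e-05) when the pair was fitted as 1 gene. Ly6c1 made up 8.92 ± 3.06% of the summed counts in Tespa1+/+ and 6.60 ± 1.23% in Tespa1-/- libraries (SD, n = 3 each; two-sided exact permutation test p = 0.3). The higher total was therefore carried by counts assigned to Ly6c2.

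Ly6g, the neutrophil antigen, had 0 counts in each of the 3 Tespa1+/+ libraries and 7, 8 and 4 counts in the Tespa1-/- libraries. Over the Tespa1-/- group this was 0.432 CPM (exact Poisson 95% interval 0.26 to 0.674, counting error only). A count of 0 over the Tespa1+/+ group allows up to 0.0464 CPM (3 counts), and from the lower end of the interval Ly6g was at least 5.6-fold higher in Tespa1-/- LSKs. Other neutrophil genes moved the same way. Of 11 neutrophil markers, 10 were called higher and 1 (Cxcr2) was not called, at a median of 5.35. Ngp, Camp, Ltf, Retnlg and Mmp9 passed the filter only through the Tespa1-/- libraries, which favours a higher call and raises the median. The summed level of the list was 27.6 to 31.3 CPM in Tespa1+/+ and 487.7 to 514.5 CPM in Tespa1-/- libraries. Ngp, a neutrophil granule protein, rose from 0.252 ± 0.0859 to 71.9 ± 0.614 CPM, and Retnlg was at 0.0183 ± 0.0317 against 5.90 ± 0.582 CPM. Their part in the change of Ly6c2 and Ly6g was not tested.

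Ly6c2 also marks monocytes. Of 10 monocyte markers, 2 were called higher, 4 lower and 4 not called, with a median of -0.20, and the summed level was 1112 to 1134 CPM in Tespa1+/+ and 938.5 to 942.1 CPM in Tespa1-/- libraries. Lgals3 (5.02 ± 1.08 to 12.6 ± 0.706 CPM) and Cd14 (46.1 ± 2.16 to 73.6 ± 4.51 CPM) rose, whereas Fn1 (6.78 ± 0.503 to 1.66 ± 0.537 CPM) and Cx3cr1 (10.3 ± 3.52 to 3.80 ± 0.295 CPM) fell. The monocyte list thus did not move with Ly6c2 in 1 direction.

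Further antigens of the lineage cocktail were low or not called. Itgam (CD11b) was at 30.3 ± 1.18 against 20.6 ± 9.13 CPM (log2 fold change -0.57, edgeR adjusted p = 0.152), and Ptprc, of which B220 is an isoform, was at 213.9 ± 7.01 against 170.8 ± 34.4 CPM (-0.32, edgeR adjusted p = 0.0715). Cd3e had 8, 7 and 4 counts in Tespa1+/+ libraries and 0 in each Tespa1-/- library. It was too low to be tested.

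Ly6e, the most abundant member per kilobase of union exon, differed little. Its level was 714.1, 747.2 and 757.4 CPM for Tespa1+/+ and 816.3, 798.6 and 779.6 CPM for Tespa1-/- libraries, without overlap. The log2 fold change of 0.11 (SE 0.031, 95% interval 0.04 to 0.18, edgeR adjusted p = 0.0167) passed the adjusted p and not the fold. It was 0.01 with total counts (edgeR adjusted p = 0.794), so that the difference was no larger than the choice of scaling. Ly6e and Ly6a are known interferon-responsive genes. Of 18 other interferon response genes, 10 were called lower, 0 higher and 8 not called, with a median of -0.60. The largest falls were in Iigp1 (14.8 ± 1.79 to 3.71 ± 1.40 CPM, log2 fold change -2.02) and Rsad2 (17.0 ± 1.04 to 4.89 ± 0.657 CPM, -1.80). Neither Ly6 gene was among the called genes.

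Ly6d, which marks B-lineage-committed lymphoid progenitors, had few counts, with 30, 32 and 16 counts in Tespa1+/+ and 21, 11 and 10 counts in Tespa1-/- libraries. Its level was 1.246 ± 0.351 against 0.931 ± 0.261 CPM (SD, n = 3 for both groups; log2 fold change -0.37, SE 0.306, 95% interval -1.09 to 0.35, edgeR adjusted p = 0.321), and a change of this size was not detectable at this depth. The first length correction gave -0.76 (edgeR adjusted p = 0.0588) and the second -0.93 (edgeR adjusted p = 0.0336), and leaving out 1 library gave between -0.65 (without Tespa1-/- replicate 1) and -0.13 (without Tespa1+/+ replicate 1). Of 10 tested B cell markers, 8 were called lower, 0 higher and 2 not called, with a median of -1.31. Rag1, a recombinase of antigen receptor genes, fell from 8.48 ± 0.656 to 1.05 ± 0.425 CPM, and Pax5, a B cell transcription factor, from 8.97 ± 0.696 to 1.70 ± 1.14 CPM.

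Between the outermost Ly6 members on chromosome 15 the annotation holds 25 genes, of which 9 were tested, with 4 called higher and 0 lower. Of all genes tested, 14.0% were called higher and 19.2% lower. Besides Ly6c2, those called higher were Ly6k, from 0.401 ± 0.0635 to 0.968 ± 0.227 CPM (log2 fold change 1.28, edgeR adjusted p = 0.00658), and 2 pseudogenes. Ly6k had only 7 to 16 counts per library. The pseudogenes were Ly6a2 (9.59 ± 1.23 to 23.3 ± 2.36 CPM) and Gm5960 (4.79 ± 0.420 to 8.29 ± 0.660 CPM), whose counts are uncertain where reads were shared with related genes. Ly6k, Ly6a2 and Gm5960 are short (829, 798 and 406 bases of union exon). Genes of similar length to Ly6d (744 bases) were at a median of 0.62. Ly6i, at 1.04 ± 0.228 against 1.14 ± 0.296 CPM, was not called. The whole cluster summed to 1052 to 1102 CPM in Tespa1+/+ and 1357 to 1383 CPM in Tespa1-/- libraries. Ly6e held 67.9% to 68.8% of its counts in Tespa1+/+ and 57.1% to 60.2% in Tespa1-/- libraries, while Ly6c2 held 22.2% to 24.6% and 32.4% to 34.9%.

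Of 33 further Ly6/uPAR genes, 20 had 0 counts in all 6 libraries and 6 were tested, with 1 called higher (Ly6k), 1 lower and 4 not called (median -0.02). The lower one was Lynx1, a modulator of nicotinic receptors (0.951 ± 0.278 to 0.319 ± 0.141 CPM, log2 fold change -1.55, edgeR adjusted p = 0.0108). The GPI anchor that most Ly6 proteins carry is built by a separate set of enzymes. Of 25 tested genes of this pathway, 3 were called higher, 2 lower and 20 not called, with a median of 0.16. Pigc (10.7 ± 3.68 to 18.9 ± 2.06 CPM) and Piga (36.9 ± 1.72 to 64.3 ± 12.2 CPM) rose, and Pign (80.6 ± 1.55 to 52.6 ± 2.001 CPM) and Pigm (63.5 ± 1.26 to 42.1 ± 1.17 CPM) fell.

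Markers of further cell types were measured beside the members. Of 8 T cell genes, 4 had enough counts to be tested, and all 4 were called lower (median log2 fold change -1.502). Cd4 was at 0.819 ± 0.185 against 0.163 ± 0.177 CPM and Cd247 at 0.924 ± 0.186 against 0.210 ± 0.238 CPM. Both passed the filter only through the Tespa1+/+ libraries, which favours a lower call. Of the untested genes, Cd3e and Bcl11b had a lower mean in Tespa1-/- libraries. Cd3d (0.116 against 0.173 CPM) and Cd3g (0.0527 against 0.147 CPM) had a higher one. Of 8 endothelial genes, 6 were called lower and 2 not (median -1.77), with Kdr at 2.13 ± 0.352 against 0.0586 ± 0.102 CPM and Cldn5 at 1.01 ± 0.171 against 0.0425 ± 0.0371 CPM. Of 6 plasma cell genes, 2 rose (Jchain and Derl3) and 2 fell (Prdm1 and Sdc1), with a median of 0.22. Of 4 plasmacytoid dendritic cell genes, Cox6a2 rose and Spib and Ccr9 fell (median -0.89). Of 5 mast cell and basophil genes, Ms4a2 fell (median -0.07). Of 6 erythroid genes, 3 rose, with the largest rises in Slc4a1 and Hba-a1, and Klf1 and Epor fell (median 1.10). Kdr, Cldn5, Prdm1 and Spib passed the filter only through the Tespa1+/+ libraries, and Slc4a1 only through the Tespa1-/- libraries. This favours the calls they received. The first and second of these lists summed to 16.9 to 18.5 CPM (T cell) and 219.6 to 223.8 CPM (endothelial) in Tespa1+/+, and to 8.12 to 9.67 and 120.7 to 136.3 CPM in Tespa1-/- libraries. Their part in the members' values was not tested.

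**Figure D2:**
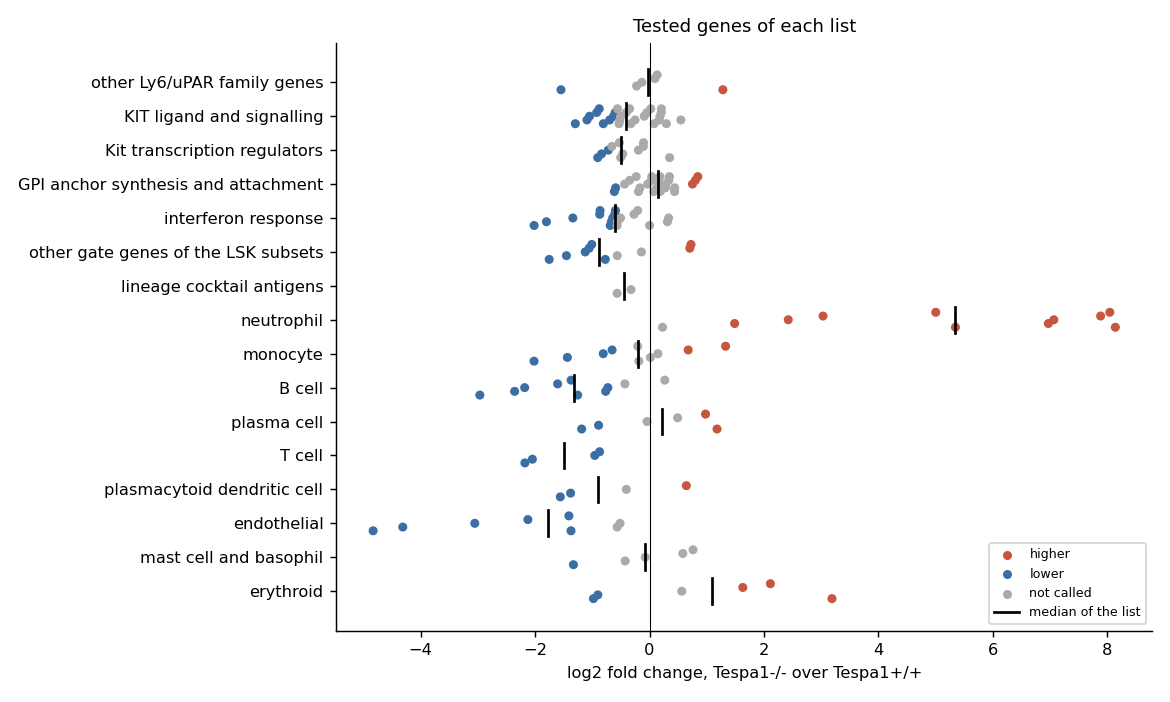
Each point is 1 tested gene, placed by its log2 fold change (Tespa1-/- over Tespa1+/+) in the row of its list, in red where called higher, blue where called lower and grey where not called, and the black bar is the median of the list. The neutrophil list stands at a median of 5.35, whereas the medians of the KIT signalling, interferon response and LSK gate gene lists lie at -0.41, -0.60 and -0.89. In the neutrophil list, Ngp, Camp, Ltf, Retnlg and Mmp9 passed the filter only through the Tespa1-/- libraries. The medians of the lists are not corrected for gene length. Of all genes tested, 14.0% were called higher and 19.2% lower.

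Fold changes fell with gene length. Over 10025 genes above 8 CPM, the Spearman correlation between union exon length and log2 fold change was -0.62, a description across genes, which are not independent replicates and share the same 6 libraries. Against genes of similar length, Kit (-0.97, with a median of -0.33 for such genes) and Ly6a (-0.32 against 0.53) were lower, Ly6c2 (0.88 against 0.26) was higher, and Ly6c1 (0.43 against 0.46) and Ly6e (0.11 against 0.10) lay at the median. Ly6d (-0.37 against 0.62) was lower, with few counts. The gene lists were not compared with genes of similar length, and the cause of the trend was not tested.

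**Figure D3:**
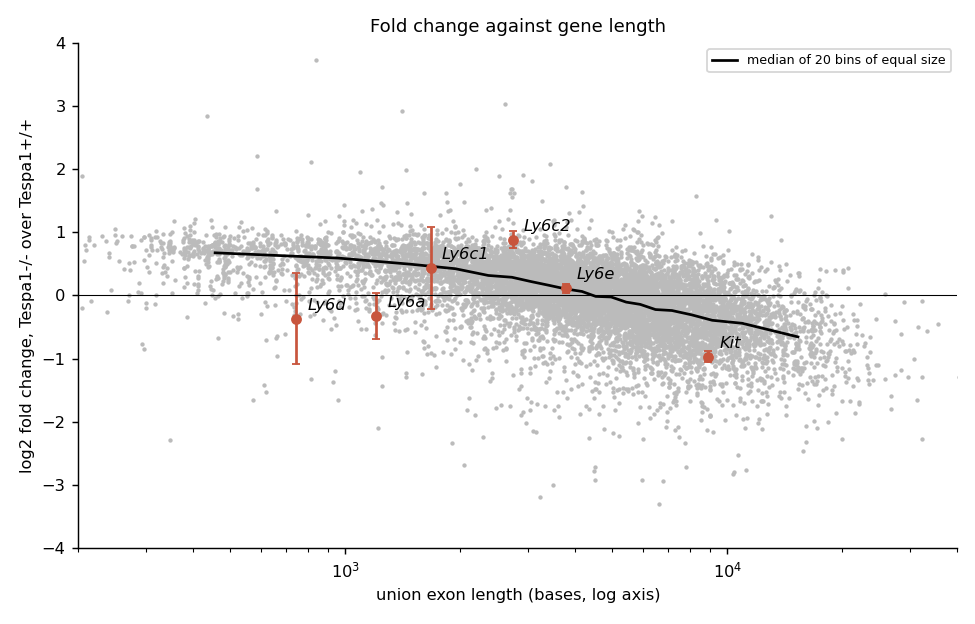
Grey points are 10131 genes by union exon length (bases, log axis) and log2 fold change (Tespa1-/- over Tespa1+/+), of which 44 lie outside the axes, the black line joins the medians of 20 bins of equal size, and the 6 tested members are in red with their 95% intervals. Kit, Ly6a and Ly6d lie below the line, Ly6c2 lies above it, and Ly6c1 and Ly6e lie on it.

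**Figure D4:**
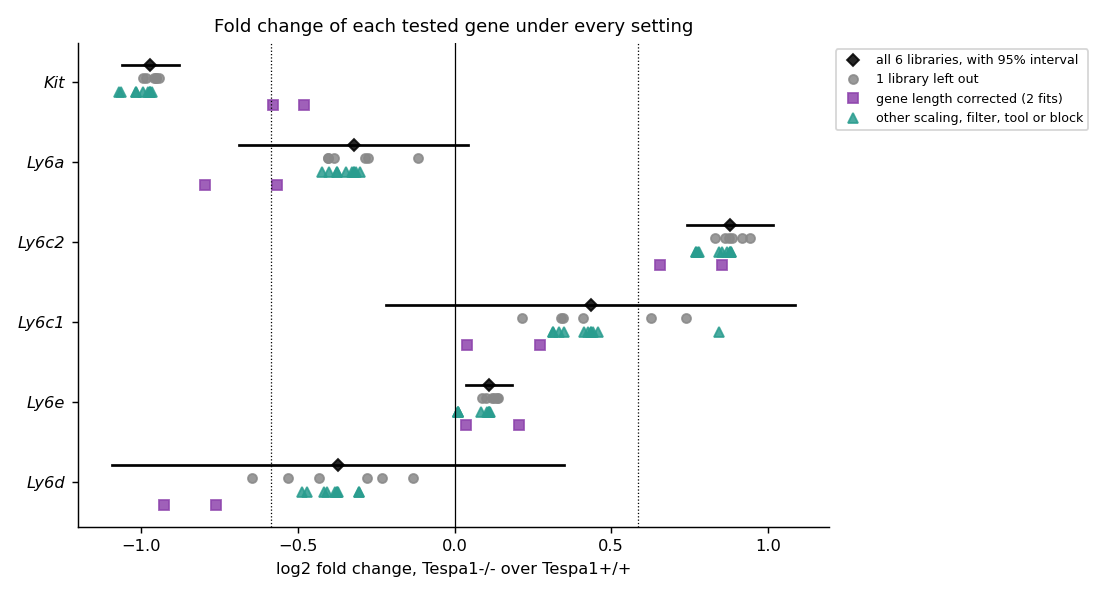
For each tested member, the log2 fold change (Tespa1-/- over Tespa1+/+) with all libraries is a black diamond with its 95% interval, and the other points are the values with 1 library left out (grey), with gene length corrected in 2 ways (purple) and with other scalings, filters, tools, the block or the Ly6c1 and Ly6c2 sum (green). Dotted lines mark a fold of 1.5. Kit stayed below 0 and Ly6c2 above 0 in every setting, and both length corrections brought Kit to -0.48 and -0.58.

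The genes whose profile over the 6 libraries was nearest to that of Kit, among 10821 genes with a mean count of at least 100, were Gm4070, Gm1966 and Sptbn1, at Euclidean distances of 0.0481, 0.0644 and 0.0686 in centred log2 CPM, where the median gene was at 1.31. The nearest to Ly6a were Fam204a, H2bc3 and Atp11a, at 0.209, 0.221 and 0.235 with a median of 0.824.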

How the data were processed

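Poly-A RNA of LSKs from 6 samples was sequenced as stranded paired-end libraries. The authors deposited 1 table with raw counts and FPKM per gene. The submitters' processing notes name CASAVA 1.8, HISAT2, StringTie, edgeR and GRCm38; the counting tool and its strand setting were not given in the sources used here. The deposited FPKM used a length equal, within 1%, to the sum of distinct exons for 97.9% of 11945 genes. Overlapping exons then count repeatedly, so levels between genes were compared with lengths from GENCODE M21.

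Counts were filtered (filterByExpr), scaled (TMM) and compared in edgeR 4.0.16 by its quasi-likelihood F-test (6 samples, no covariates, Benjamini-Hochberg over 15332 genes) in R 4.3.3. Alternatives used DESeq2 1.42.0, limma 3.58.1 on log2(FPKM + 1) or log2(FPKM + 0.1), other scalings and filters, a replicate block, glmTreat, a loess length offset (span 0.5) and leaving out each library. A second length offset, fitted on genes over 8 CPM, was added after the first had been seen. A gene could pass the filter through 1 group alone, which favours a call towards that group. Among others, this held for Ly6k, Lynx1, Cd4, Cd247, Kdr, Cldn5, Prdm1, Spib, Slc4a1, Ngp, Retnlg, Camp, Ltf and Mmp9. Scripts were tested on simulated data. From 16 lists, the 2 largest rises and falls among called genes were named, with the lineage cocktail genes (1 is not reported here), all called Ly6/uPAR and cluster genes and the 3 nearest profiles; Tal1, Kitl, Cxcr2 and Ly6i were named after their values were seen. The members and lists were chosen with earlier results of these data known. The Ly6g interval and its floor cover counting error only. The 95% intervals of the log2 fold changes come from the edgeR fit and include the spread between libraries.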

Additional observations from a re-analysis of the deposited data

How the results depend on the processing

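Of 112 fold changes of members under alternatives, 99 kept their direction and their side of the adjusted p threshold, and none changed direction. The sum of Ly6c1 and Ly6c2 was entered among them for each of the pair. The count of members called higher went from 1 to 2 without a filter and with DESeq2 (Ly6g added) and ranged from 1 to 2 when a library was left out (Ly6c1 added without Tespa1+/+ replicate 3). The count called lower went from 1 to 0 with the length correction (Kit at -0.48, a fold under 1.5), and to 2 with the second length correction, chosen after seeing the data (Ly6a and Ly6d, with Kit at -0.58). Ly6a passed the adjusted p with total counts (-0.42), the length correction (-0.57) and the second correction (-0.80). Ly6d passed with the second correction only (-0.93). The sum of Ly6c1 and Ly6c2 passed (0.84), but Ly6c1 was a small part of it. For Ly6c1 alone, leaving out a library gave 0.21 to 0.74. Ly6e lost the adjusted p with total counts (0.010), without a filter (0.114), in limma on FPKM with either pseudocount or no filter (0.010 in each), with the second length correction (0.036) and with glmTreat against 1.5-fold (0.110). The first and second length corrections moved the median of all genes by 0.11 and -0.05, and the correlation with length from -0.62 to -0.08 and -0.01; they called 1787 and 984 genes higher and 2070 and 2613 lower, against 2148 and 2951 without one. Limma on FPKM with a pseudocount of 1 called 1070 and 1626, with 0.1 it called 1365 and 2278, without a filter 1090 and 1716, and glmTreat called 1020 and 1807. In a fit with a replicate block, Kit was at -0.97 and Ly6c2 at 0.88, and no call of a member changed. Same-numbered samples did not deviate together (correlations of -0.07, -0.08 and 0.01). This gave no sign of a pairing by number, which so few samples cannot exclude. The filter removed Ly6g, so alternatives with that filter gave no value for it. Its log2 fold change was 5.98 in edgeR without a filter (edgeR adjusted p = 0.00218) and 5.57 with DESeq2 (DESeq2 adjusted p = 0.00164). In limma on log2(FPKM + 1) without a filter it was 0.40 (limma adjusted p = 0.00194). With 0 counts in Tespa1+/+ libraries, the size of these values depends on the tool. The cause of the differences between settings was not tested. The depth limits Ly6d and Ly6g, which had 32 counts or fewer in each library.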
